A study of Mus musculus with 12 samples.

Results

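The Id genes and the SMAD feedback genes are genes that cells switch on when they receive signals of the TGF-beta family, and they were followed here in fetal mouse gonads at E12.5. The set has 9 members: the inhibitors of DNA binding Id1, Id2, Id3 and Id4, the SMAD co-repressors Skil and Ski, the inhibitory SMADs Smad6 and Smad7, and the pseudoreceptor gene Bambi. A member was read from the transcript cluster, the array's unit for one locus, that carries its symbol alone, and each member had 1 such cluster among the 65956 clusters of the array and the 30176 gene symbols with a cluster of their own. The question was how these genes stood in XY gonads that lacked 2 ligands of the family, anti-Müllerian hormone (AMH) and activin B, compared with control XY and control XX gonads.

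Gonads of 3 groups were hybridized to Affymetrix Clariom D mouse arrays, 4 arrays per group. Control XY and control XX gonads were wild type (Amh+/+; Inhbb+/+), and dKO XY gonads lacked both genes (Amh-/-; Inhbb-/-). All 3 groups came from Amh+/-; Inhbb+/- crosses in the C57BL/6 background and were collected at embryonic day 12.5, and the gonads were separated from the mesonephros. Both knockouts are constitutive, so the ligands were absent from every cell of the embryo. The methods count the 4 samples of a group as biological replicates, and the labels do not give the number of gonads in a sample.

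Ligands of the family bind a type II and a type I receptor kinase, and the type I receptor phosphorylates SMADs that enter the nucleus with SMAD4. AMH and bone morphogenetic proteins (BMPs) act through SMAD1, SMAD5 and SMAD9, whereas activins and TGF-beta act through SMAD2 and SMAD3. Id proteins have a helix-loop-helix domain but no DNA-binding region, so they hold E proteins away from DNA, and Id1, Id2 and Id3 are among the best known direct targets of BMP-type SMADs. The feedback genes limit the same signal: SKI and SNON (the product of Skil) repress SMAD target genes in the nucleus, SMAD6 and SMAD7 block SMAD phosphorylation at the receptors, and BAMBI resembles a type I receptor without the kinase domain.

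Promoter sequences of 5 of the 9 members (Id2, Id3, Id4, Ski and Smad6) were in the RefSeq promoter table (GRCm38.p6). The 3 shown here were picked for differing in the SMAD motifs they hold and in the size of their genes' difference between dKO XY and control XY. Each is the stretch of 250 bases before the transcription start, read 5′ to 3′, with the Smad6 stretch continued by 4 bases past the start so that its motif is whole. Id2 lies at chr12:25096093-25096342 on the minus strand, Id3 at chr4:136143572-136143821 on the plus strand and Smad6 at chr9:64022056-64022309 on the minus strand, and capitals mark the motif.
Id2: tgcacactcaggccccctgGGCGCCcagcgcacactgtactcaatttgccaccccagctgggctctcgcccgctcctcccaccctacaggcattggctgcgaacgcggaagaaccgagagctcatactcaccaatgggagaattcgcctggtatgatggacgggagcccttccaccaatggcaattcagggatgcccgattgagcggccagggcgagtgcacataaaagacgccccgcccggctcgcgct
Id3: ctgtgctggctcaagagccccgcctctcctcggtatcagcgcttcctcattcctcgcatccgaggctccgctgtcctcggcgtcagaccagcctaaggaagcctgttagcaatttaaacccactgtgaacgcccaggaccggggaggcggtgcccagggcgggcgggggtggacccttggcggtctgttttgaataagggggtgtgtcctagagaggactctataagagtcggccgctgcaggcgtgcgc
Smad6: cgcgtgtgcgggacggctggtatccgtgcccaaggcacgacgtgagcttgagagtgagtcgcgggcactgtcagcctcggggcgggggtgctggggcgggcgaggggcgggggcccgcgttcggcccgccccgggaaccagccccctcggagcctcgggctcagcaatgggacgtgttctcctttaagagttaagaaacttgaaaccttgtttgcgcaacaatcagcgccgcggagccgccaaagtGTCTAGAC
2 motifs were searched for from 250 bases before to 50 bases after the start, and both read the same on either strand. The SMAD-binding palindrome GTCTAGAC was present in Smad6, beginning 4 bases upstream of the start, and in 70 of 32851 promoters of the table (0.213%). The GC-rich element GGCGCC bound by BMP-type SMADs was present in Id2 (231 bases upstream), Id4 (148 bases) and Ski (220 bases), and in 11.9% of all promoters. Id3 held neither string. In dKO XY against control XY, Id2 and Id3 were called lower, as given below, and Id4, Ski and Smad6 were not called. A link between motif and level was not tested. A match is a string of letters and not a measured binding site.

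The arrays of the groups differed in more than genotype. The signal contrast of an array, the mean log2 intensity of its 1324 positive control probe sets minus that of its 5222 negative ones, was 3.70 to 4.44 on the control XY arrays, 3.21 to 3.65 on the control XX arrays and 2.83, 3.83, 2.48 and 3.30 on dKO XY 1 to 4. dKO XY 1 and dKO XY 3 were thus the lowest of all 12. The median log2 difference from control XY over all clusters was 0.17 in dKO XY and 0.12 in control XX. Among the brighter clusters, those with a mean at or above the median, it was -0.09 and -0.01. The shift of the table thus differed with the level of the clusters. Arrays of a group correlated at 0.974 to 0.992, and no pair was identical. The labels were checked on Amh, at 10.56 to 13.38 in control XY against 5.59 to 5.90 in dKO XY, and on Inhbb, at 7.10 to 8.02 against 6.69 to 6.99; where their probes lie relative to the deleted parts is not given. Sox9, the Sertoli cell factor, was at 10.04 to 10.68 in control XY, 9.94 to 10.85 in dKO XY and 6.91 to 7.67 in control XX, and Fst, an ovarian activin antagonist, was at 10.02 to 11.80 in control XX and at most 6.56 in the XY groups. Foxl2, a pre-granulosa marker, was at or below the background probe sets on all control XY arrays and on some arrays of both other groups.

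In dKO XY gonads, 5 of the 9 genes (Id1, Id2, Id3, Skil and Bambi) were lower than in control XY and none was higher (limma, adjusted p under 0.05 over all 65956 clusters). Of all clusters, 9.80% were called lower and 16.7% higher in this comparison, and among the brighter clusters, those at or above the median mean level, 19.0% were called lower. At an unadjusted p under 0.05, 7 members were lower (Ski and Smad7 beside these 5), against 15.6% of all clusters. When the brighter clusters were fitted alone, 29.0% of them were lower at that threshold, and all members but Id4 belong to them. The 4 arrays of dKO XY all lay below the 4 of control XY for 6 genes (Id1, Id2, Id3, Skil, Ski and Smad7), against 8.24% of all clusters. For the brighter clusters, to which these 6 belong, the share without overlap was not computed in any comparison. The median difference of the 9 genes was -0.68, beside 0.17 over all clusters and -0.09 over the brighter ones. All 9 genes lay above the brightest of the 23 background probe sets on all 12 arrays. The 5222 negative probe sets form a higher floor, as they averaged 6.54 to 6.95 per array. Id4, at 5.92 to 6.49, was below that average on every array. Bambi was below it on dKO XY 3 (6.48 beside 6.85), dKO XY 4 (6.67 beside 6.68) and control XX 1 (6.66 beside 6.84). In whole gonads, fewer cells of an expressing type and less RNA per cell cannot be told apart. The study itself reported the profiles of the XY groups at E12.5 as statistically indistinguishable, by one-way ANOVA with a 2-fold minimum and FDR correction. The calls here depart from that report, and whether its test used these values is not known. With an unmoderated one-way ANOVA contrast on these values, Id1, Id2 and Skil were still called (adjusted p = 0.0479, 0.0475 and 0.0475), each past 2-fold. Id3 was called too, below 2-fold (adjusted p = 0.0498), and Bambi was not. Without a fold minimum, that contrast called 2506 clusters lower and 4452 higher.

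**Figure D1:**
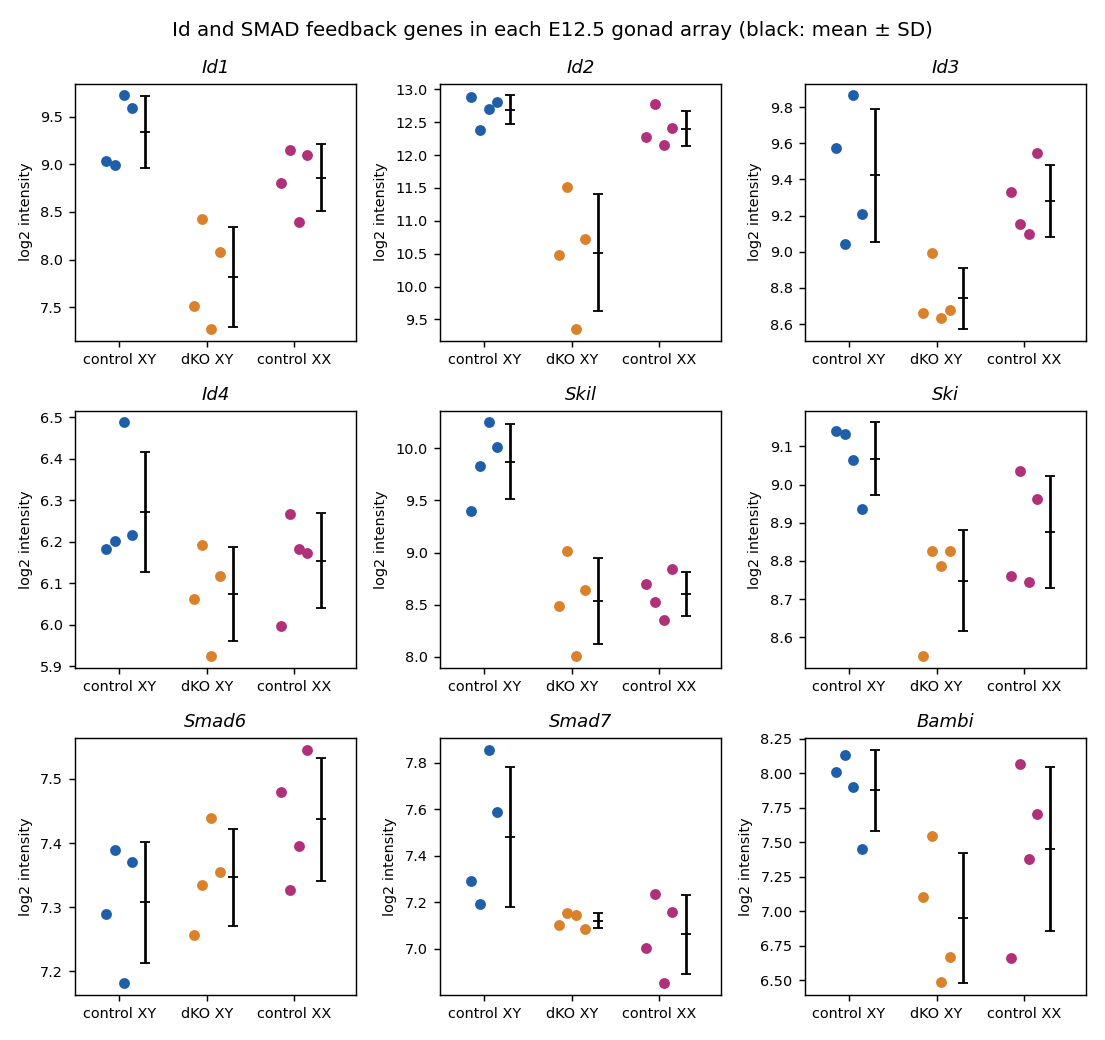
Level of each of the 9 genes (y axis, log2 intensity, own scale per panel, not starting at 0) on each array of control XY (blue), dKO XY (orange) and control XX (purple), with 4 arrays per group and the mean ± SD in black. For Id2 the dKO XY arrays sit at 9.36 to 11.51, below all arrays of both control groups (12.15 to 12.88), whereas for Skil the dKO XY and control XX arrays share one range below control XY.

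Id2 had the largest difference of the 9. It was at 12.88, 12.38, 12.70 and 12.81 on control XY 1 to 4, at 10.49, 11.51, 9.36 and 10.72 on dKO XY 1 to 4, and at 12.28, 12.77, 12.15 and 12.41 on control XX 1 to 4. All dKO XY arrays were below every control array of either sex, and dKO XY 3 was the lowest of them. Id2 was 4.51-fold lower in dKO XY than in control XY (log2 difference -2.17 ± 0.34 SE, 95% CI -2.91 to -1.44, adjusted p = 0.0146). The call was lost when control XY 3 or dKO XY 1 was left out (highest adjusted p = 0.059). Over the 12 fits that each left out 1 array, the difference ran from -2.50 to -1.79. Without control XY 3 and without dKO XY 1, 84 and 60 clusters of the whole table were called lower, beside 6465.

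Id1 followed, at 9.03, 8.99, 9.73 and 9.60 in control XY, 7.51, 8.42, 7.27 and 8.08 in dKO XY, and 8.80, 9.15, 8.39 and 9.10 in control XX. The dKO XY arrays did not overlap those of control XY, while dKO XY 2 stood above control XX 3. Id1 was 2.86-fold lower in dKO XY than in control XY (-1.52 ± 0.27 SE, CI -2.09 to -0.94, adjusted p = 0.0184). The call was lost on leaving out control XY 3 and likewise for arrays 1 and 3 of dKO XY (highest adjusted p = 0.0675). The difference ran from -1.72 to -1.33 over the fits that left out 1 array.

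Id3 changed less. Its levels were 9.57, 9.04, 9.87 and 9.21 in control XY, 8.66, 8.99, 8.63 and 8.68 in dKO XY, and 9.33, 9.15, 9.10 and 9.54 in control XX. The dKO XY arrays were again below all control arrays, but by a narrow margin: dKO XY 2 and control XY 2 were 8.99 and 9.04. Id3 was lower in dKO XY by -0.68 ± 0.18 SE on the log2 scale (CI -1.07 to -0.30, adjusted p = 0.0262). The call did not hold on leaving out control XY 3 or any of arrays 1, 3 and 4 of dKO XY (highest adjusted p = 0.0802). In the fits that left out 1 array the difference ran from -0.81 to -0.53. The call was also lost after quantile normalization (-0.25, adjusted p = 0.267).

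Id4, the remaining Id gene, was not called. It ranged from 6.18 to 6.49 in control XY, 5.92 to 6.19 in dKO XY and 5.996 to 6.27 in control XX, so all 3 groups overlapped. The dKO XY arrays differed from control XY by -0.20 (CI -0.44 to 0.04, adjusted p = 0.177).

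Of the co-repressor genes, Skil was lower and Ski was not called. Skil was at 9.40, 9.83, 10.25 and 10.01 in control XY, 8.48, 9.01, 8.01 and 8.64 in dKO XY, and 8.70, 8.53, 8.35 and 8.84 in control XX. Control XY stood above all arrays of the other groups, which overlapped each other. Skil was 2.52-fold lower in dKO XY than in control XY (-1.34 ± 0.22 SE, CI -1.81 to -0.86, adjusted p = 0.0163). This call was lost without control XY 3 or dKO XY 1 (highest adjusted p = 0.0608). Its difference ran from -1.49 to -1.16 over the fits that left out 1 array. Ski, its paralog, was at 9.14, 9.13, 9.06 and 8.94 in control XY and at 8.55, 8.83, 8.79 and 8.83 in dKO XY. The groups did not overlap, but the difference of -0.32 ± 0.11 SE had an adjusted p of 0.0524, and it was 0.09 after quantile normalization.

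The inhibitory SMADs were not called in any comparison. Smad6 lay within 7.18 to 7.55 on all 12 arrays, and dKO XY differed from control XY by 0.04 (CI -0.18 to 0.25, adjusted p = 0.773). Smad7 was at 7.29, 7.19, 7.86 and 7.59 in control XY, 7.10, 7.15, 7.14 and 7.08 in dKO XY, and 7.002, 7.24, 6.85 and 7.16 in control XX. The dKO XY arrays were the tightest group and all lay just below control XY, where control XY 3 and 4 stood well above the others. The difference was -0.36 ± 0.15 SE (CI -0.68 to -0.04, adjusted p = 0.0767).

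Bambi, the pseudoreceptor gene, was lower in dKO XY with overlapping groups. It was at 8.01, 8.13, 7.90 and 7.45 in control XY, 7.11, 7.54, 6.48 and 6.67 in dKO XY, and 6.66, 8.07, 7.38 and 7.70 in control XX. dKO XY 2 stood above control XY 4, so the XY groups overlapped, and control XX spanned nearly the range of both. Bambi in dKO XY differed from control XY by -0.92 ± 0.29 SE (CI -1.56 to -0.29, adjusted p = 0.0398). The call was lost in 7 of 12 fits that each left out 1 array, each of the 4 control XY arrays and dKO XY 1, 3 and 4 (highest adjusted p = 0.117), and after quantile normalization (adjusted p = 0.0965).

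Between control XX and control XY, Skil was the 1 gene of the 9 that passed the test, while 1.34% of all clusters and 2.60% of the brighter ones were called lower. Skil was 2.41-fold lower in control XX (-1.27 ± 0.22 SE, CI -1.75 to -0.79, adjusted p = 0.0106), and this call held in 12 of 12 fits that left out 1 array (adjusted p 0.00534 to 0.044). It was also the 1 member whose arrays did not overlap between the sexes, against 5.76% of clusters that were lower without overlap. The intervals of the other members allow for differences of some size: Id1 -0.48 (CI -1.05 to 0.10), Id2 -0.29 (CI -1.02 to 0.45) and Id3 -0.14 (CI -0.53 to 0.24). Smad7 differed by -0.42 ± 0.15 SE (adjusted p = 0.153) and Bambi by -0.42 (adjusted p = 0.382), while Ski (-0.19), Id4 (-0.12) and Smad6 (0.13) had adjusted p-values of 0.314 to 0.516. The median over the 9 genes was -0.29, beside 0.12 over all clusters and -0.01 over the brighter ones.

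Between dKO XY and control XX, Id2 was lower (-1.88 ± 0.34 SE, CI -2.62 to -1.15, adjusted p = 0.0484), while 0.126% of all clusters and 0.240% of the brighter ones were called lower. Id2 passed in 2 of 12 fits that left out 1 array, those without dKO XY 2 or dKO XY 3, and its adjusted p ran from 0.0125 to 0.237 over the 12. Id2 and Id3 were the 2 members whose dKO XY arrays all lay below control XX, against 2.23% of all clusters. Id3 differed by -0.54 ± 0.18 SE (adjusted p = 0.375) and Id1 by -1.04 ± 0.27 SE (adjusted p = 0.232), neither past the threshold. The difference of Skil was -0.07 with an interval of -0.54 to 0.41. The median over the 9 genes was -0.13, beside 0.06 over all clusters and -0.03 over the brighter ones. The 3 comparisons share groups of arrays and are not independent of each other.

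**Figure D2:**
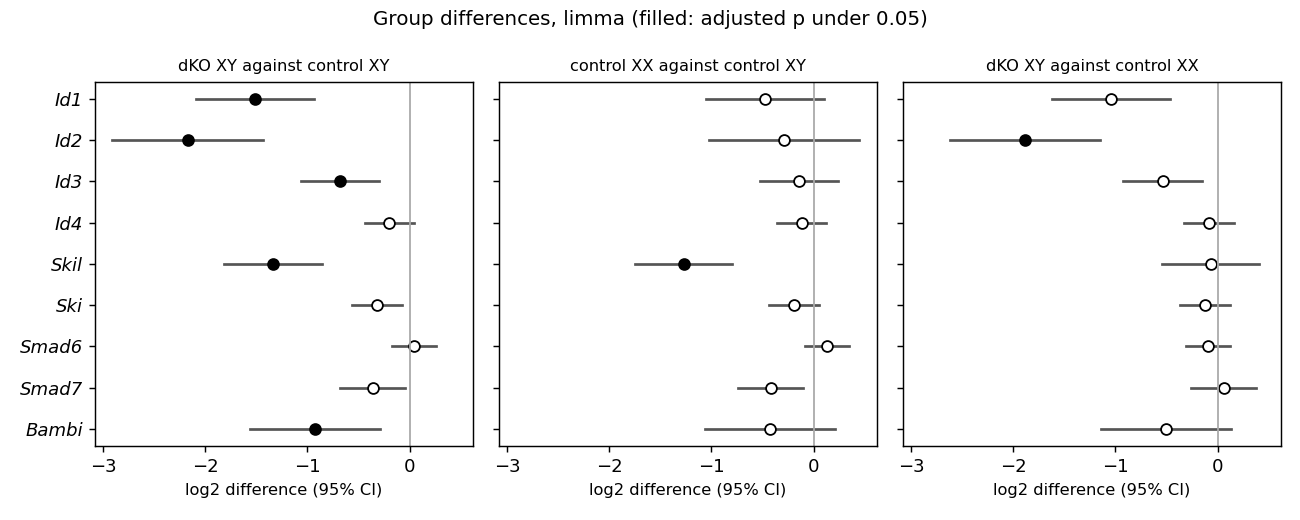
Difference between groups for each gene (x axis, log2 difference with its 95% CI) in the 3 comparisons, from limma on all 12 arrays, with filled points for an adjusted p under 0.05. 5 genes are filled in dKO XY against control XY, Skil alone in control XX against control XY (-1.27) and Id2 alone in dKO XY against control XX (-1.88).

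The levels of most members moved with the signal contrast of the arrays. Over the 12 arrays, which share groups, Pearson's r with the signal contrast was 0.84 for Id1, 0.77 for Id2, 0.73 for Id3, 0.84 for Id4, 0.87 for Skil, 0.79 for Ski, 0.62 for Smad7, 0.81 for Bambi and -0.36 for Smad6. After the group means were removed, r was 0.75 for Id1, 0.76 for Id2 and 0.75 for Skil, but 0.54 for Id3 and 0.27 for Smad7. The signal contrast of dKO XY 2, 3.83, lies between those of control XY 4 (3.70) and control XY 1 (3.95). Id2 was 11.51 on dKO XY 2, beside 12.81 and 12.88 on control XY 4 and 1, Id1 was 8.42 beside 9.60 and 9.03, and Skil was 9.01 beside 10.01 and 9.40. Id3 was 8.99 beside 9.21 and 9.57, and Bambi, at 7.54, lay between 7.45 and 8.01. These are single arrays, given without a test.

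**Figure D3:**
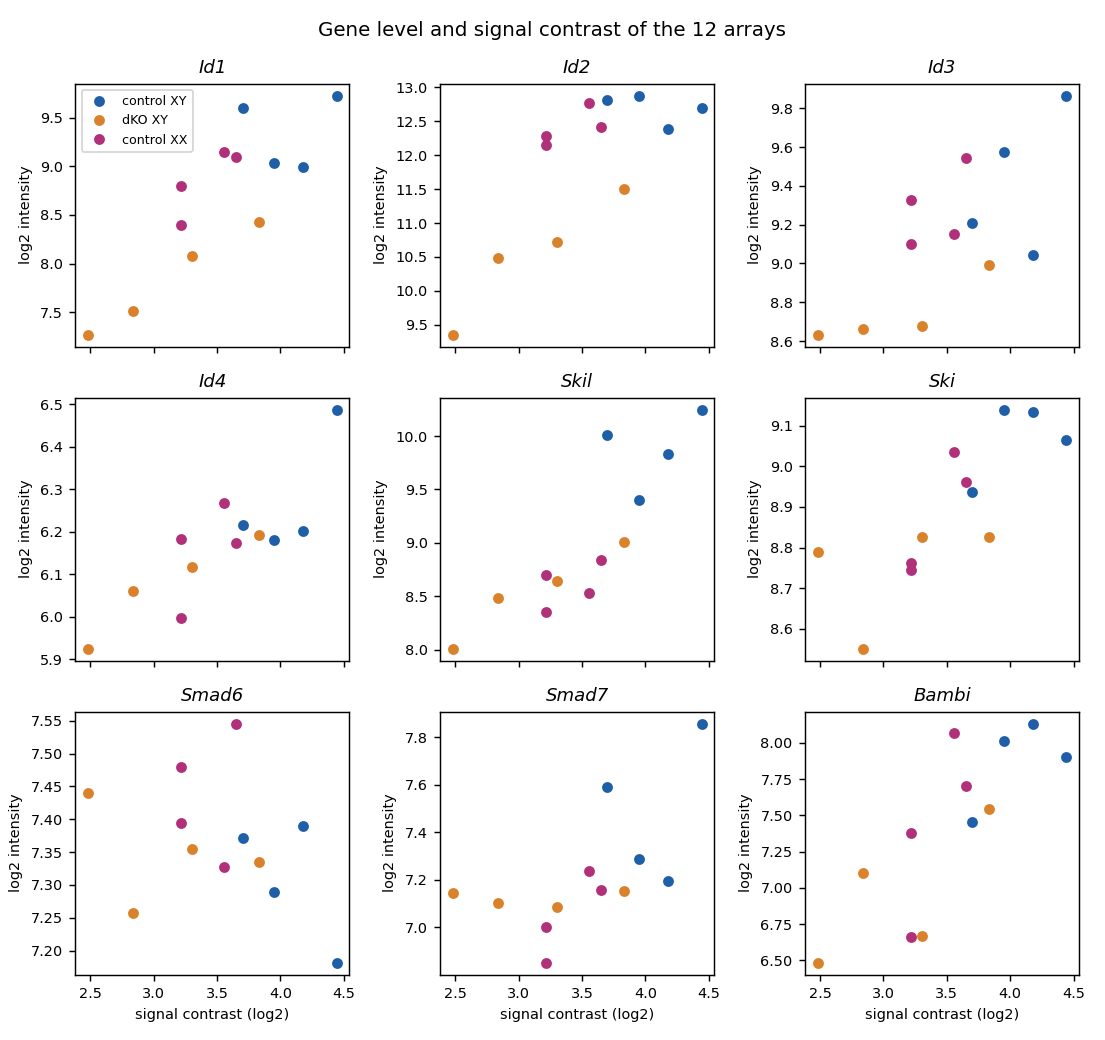
Level of each gene (y axis, log2 intensity, own scale per panel) against the signal contrast of the array (x axis, log2), 1 point per array, with control XY in blue, dKO XY in orange and control XX in purple. Id1, Id2 and Skil are lower on arrays of lower contrast within dKO XY, and at contrasts of 3.21 to 3.83 the dKO XY points of Id2 lie below the control XX points.

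With the signal contrast as a covariate, dKO XY differed from control XY by -1.19 for Id2 (CI -1.97 to -0.41), -0.77 for Id1 (CI -1.39 to -0.14) and -0.74 for Skil (CI -1.26 to -0.22). These 3 intervals left out 0, whereas those of Id3 (-0.35, CI -0.86 to 0.16) and Bambi (-0.20, CI -0.98 to 0.57) did not. After adjustment over the table, no member and none of the 65956 clusters passed limma's test in that fit, and 3 members were lower at an unadjusted p under 0.05, against 2.30% of all clusters. Without dKO XY 1 and dKO XY 3 together, the differences were -1.58 for Id2, -1.09 for Id1, -1.05 for Skil, -0.77 for Bambi and -0.59 for Id3, and no member passed (adjusted p 0.166 to 0.314 for these 5, and 4 members lower at an unadjusted p under 0.05, against 6.28% of all clusters), with 4 clusters called lower in the whole table. After quantile normalization Id2 (-1.60, adjusted p = 0.0351), Id1 (-1.27, adjusted p = 0.041) and Skil (-0.93, adjusted p = 0.0321) passed. The difference of Skil between control XX and control XY was -0.86 with the covariate (adjusted p = 0.123).

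**Figure D4:**
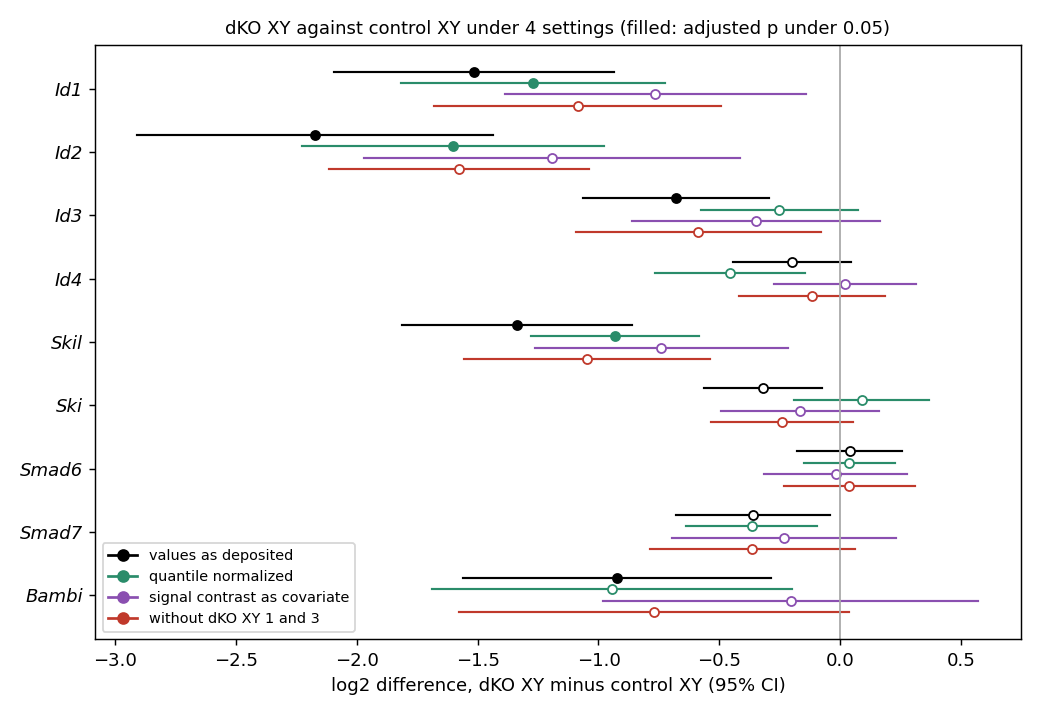
Difference of dKO XY from control XY for each gene (x axis, log2 difference with its 95% CI) from the values as deposited (black), after quantile normalization (green), with the signal contrast as a covariate (violet) and without dKO XY 1 and 3 (red), with filled points for an adjusted p under 0.05. Id1, Id2 and Skil stay below 0 under all 4 and are filled in the first 2, whereas Ski moves from -0.32 to 0.09 after quantile normalization.

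Genes that transmit the signal upstream of the members were also lower in dKO XY than in control XY in part. Over the whole table, 9.80% of clusters were called lower and 16.7% higher in this comparison, and 19.0% of the brighter ones lower. Of 12 type I and II receptor genes, 5 were lower and none higher (median -0.25), among them the BMP receptors Bmpr2 (-1.44, adjusted p = 0.0206) and Bmpr1a (-1.02, adjusted p = 0.0213) and the TGF-beta type I receptor gene Tgfbr1 (-0.63, adjusted p = 0.0255). Amhr2, the type II receptor gene of AMH, differed by 0.02 (adjusted p = 0.937). Of 6 genes of signal-transmitting SMADs, Smad4, the partner common to both branches, was lower (-0.79, adjusted p = 0.0256) and the other 5 were not called (median -0.36). In control XX the differences from control XY were -0.98 for Bmpr2 (adjusted p = 0.103), -0.39 for Bmpr1a (adjusted p = 0.289) and -0.62 for Smad4 (adjusted p = 0.136). The receptor genes called there were Acvr1, lower (-0.79, adjusted p = 0.00475), and Bmpr1b, higher (0.45, adjusted p = 0.0474). Bmpr1b lay at or below the background probe sets on some arrays of both control groups. In dKO XY, Acvr1 was lower as well (-0.58, adjusted p = 0.0213) and Bmpr1b was not called (0.28, adjusted p = 0.0589).

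Of 11 measured other genes that limit or tune SMAD activity, 9 were lower (median -0.55), a count that was 1 after quantile normalization and 1 without control XY 2. They included Ppm1a, a phosphatase of SMADs (-1.02, adjusted p = 0.0228), Tgif1, a co-repressor of SMAD2 and SMAD3 (-0.90, adjusted p = 0.0207), and Usp15, a deubiquitinase acting on the receptor complex (-0.76, adjusted p = 0.0258). Tgif1 was also lower in control XX than in control XY (-1.05, adjusted p = 0.0103). Of 11 measured genes that SMADs can induce outside the Id and feedback families, 1 was lower, the matricellular gene Ccn1 (-0.74, adjusted p = 0.0323), and 1 was higher, the cell cycle inhibitor gene Cdkn1a (0.73, adjusted p = 0.0322), with a median of 0.07. The counts of both lists stand beside 9.80% of all clusters lower, 16.7% higher and 19.0% of the brighter ones lower. Ccn1 and Cdkn1a differed in the same directions in control XX (-1.27, adjusted p = 0.00985, and 1.08, adjusted p = 0.0222).

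Among the binding partners of Id proteins and related factors with a helix-loop-helix domain, 5 of 16 were lower and 2 higher in dKO XY (median -0.33). Of all clusters, 9.80% were lower and 16.7% higher, and 19.0% of the brighter ones were lower. The E protein genes Tcf12 (-0.77, adjusted p = 0.027) and Tcf4 (-0.74, adjusted p = 0.0232) were lower, while Tcf3 was not called (-0.39, adjusted p = 0.109). Tcf12 was lower than in control XX as well (-1.20, adjusted p = 0.0354). Tcf21, a factor of the gonadal interstitium, was lower in dKO XY (-2.58, adjusted p = 0.0164) and in control XX (-3.09, adjusted p = 0.00255) than in control XY. After quantile normalization, 0 receptor genes, 0 SMAD genes and 1 of the Id partners passed. In none of these 5 lists did a gene pass with the signal contrast as a covariate, without dKO XY 1 and dKO XY 3 together, or when either of these arrays or control XY 3 alone was left out.

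Markers of several cell types moved with the groups too, and their part in the results was not tested. Counts of called markers stand beside 9.80% of all clusters lower in dKO XY, 16.7% higher and 19.0% of the brighter ones lower. Of 5 interstitial markers measured, 4 were lower in dKO XY than in control XY. The log2 of the summed intensities of all 5 was 13.23 to 14.41 in control XY, 10.79 to 12.27 in dKO XY and 11.01 to 11.89 in control XX. Tcf21 was the brightest of them in the XY groups, and a bright gene weighs most in such a sum. Of 9 endothelial markers 3 were lower, among them Cdh5 (-1.35, adjusted p = 0.0235), while Pecam1 was not called (-0.40, adjusted p = 0.136). The log2 of their summed intensities was 12.05 to 12.57, 11.03 to 12.02 and 11.21 to 11.76. For 8 Sertoli markers, of which 3 were lower, it was 16.70 to 17.73, 14.73 to 16.18 and 9.98 to 10.26. In the XY groups this sum is carried by Cst9 (16.64 to 17.67 in control XY, 14.60 to 16.11 in dKO XY, adjusted p = 0.022). Sox9 (-0.06, adjusted p = 0.859) and Dhh (-0.50, adjusted p = 0.0786) were not called. For 7 cell cycle genes, of which 6 were lower, the log2 of the summed intensities was 16.09 to 16.61, 14.87 to 16.12 and 15.48 to 15.61. None of 6 germ cell, 5 macrophage, 3 erythroid and 4 coelomic epithelium markers was called. 1 of the erythroid markers lay at the highest value of the table (19.93) on all control XY arrays, so a difference in it could be hidden. Called were 1 of 7 pre-granulosa, 1 of 3 mesonephros and 2 of 4 fetal Leydig markers, the first 2 kinds higher and the last lower.

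The genes whose levels ran most like a member's over the 12 arrays were named by Pearson's r among the brighter symbols. For Id2 these were Alcam (0.974), Paip2 (0.973) and Pigx (0.968), for Id1 Chd9 (0.982), Zfp280d (0.981) and Mef2a (0.974), and for Skil Wrn (0.984), Knl1 (0.983) and Ing1 (0.982). Id3 ran most like Mfap2 (0.967), Smad7 like Arhgef1 (0.954), Bambi like Snx6 (0.929) and Ski like Poglut2 (0.910), and the closest to Smad6, Abhd14b, reached 0.831. These are descriptions over arrays that share groups and signal contrast.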

How the data were processed

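Gonad RNA of 12 samples (4 per group) was amplified with the Nugen Pico system and hybridized to Clariom D arrays. The authors deposited log2 intensities of the arrays. Per the study's methods RMA values were tested by one-way ANOVA, but which background correction and summary gave the deposited log2 values is not given in the sources used here, nor is a batch. The stage follows the sample labels, although the data statement of the study names a later stage for these arrays. Values were used as deposited, without filter. The platform annotation gave 30638 clusters 1 symbol, 2176 several and 33142 none, and a gene was read from its single-symbol cluster of highest mean. A linear model with a mean per group was fitted to all 12 arrays (limma 3.58.1 under R 4.3.3, moderated by eBayes), with Benjamini-Hochberg adjustment over 65956 clusters, a threshold of 0.05 and 95% intervals; the script was tested on simulated data. The number of arrays limits the precision, and p-values measure the spread between samples, which the study calls biologically independent and the labels do not tie to animals. Alternatives were quantile normalization, a filter on dim clusters, fits of 2 groups, trend and robust moderation, an unmoderated ANOVA contrast, array weights, a replicate block, the signal contrast as covariate, a 2-fold minimum and leaving out arrays. Named genes were the members, label checks and up to 3 called genes of each pathway list with the largest change. Up to 2 defining markers of a cell type and the 3 symbols most like a member were also named. Acvr1, Amhr2, Bmpr1b, Cst9 and Tcf3 were named outside this rule, with their values known. Members and lists were chosen with earlier results of these data known. Python 3.11.15 and matplotlib 3.10.9 drew the plots.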

Additional observations from a re-analysis of the deposited data

Results flagged for a closer look

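Of 27 sets of 4 arrays (9 genes in 3 groups), 3 held an array far from the other 3 by Dixon's criterion (gap to the nearest array over the range of the 4), a criterion that chance meets in about 1 set of 20. Id3 on dKO XY 2 was 8.99, with the next array at 8.68 (ratio 0.872). Id4 on control XY 3 was 6.49, with the next at 6.22 (ratio 0.885). Ski on dKO XY 1 was 8.55, below the next at 8.79 (ratio 0.859). The signal contrast was 3.83 on dKO XY 2 and 4.44 on control XY 3, each the highest of its group, and 2.83 on dKO XY 1; its part in these values was not tested.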

How the results depend on the processing

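The number of arrays limits the precision, and the signal contrast differs between the groups. In dKO XY against control XY, 3 members were lower after quantile normalization, 3 with a 2-fold minimum, 0 with the signal contrast as a covariate and 0 without dKO XY 1 and 3 together, beside 5, and 0 to 6 when 1 array was left out. Over the whole table, calls went from 6465 lower and 11036 higher to 975 and 835 after quantile normalization, to 84 lower without control XY 3, 60 without dKO XY 1 and 135 without dKO XY 3. In control XX against control XY, 0 members passed with the covariate, beside 1. In dKO XY against control XX, 0 passed with 2 groups in the fit, with trend and robust moderation, with the ANOVA contrast and without dKO XY 1 and 3, and 0 to 1 when 1 array was left out.

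For the pathway lists in dKO XY against control XY, SMAD calls were 1, receptors 5, other regulators 9, other SMAD-induced genes 2 and Id partners 7. They were 0 for all 5 with the covariate and without dKO XY 1 and 3, and 0, 0, 1, 2 and 1 after quantile normalization. The ANOVA contrast gave 0 SMADs, 4 other regulators, 0 SMAD-induced genes and 2 Id partners, array weights 3 SMADs and 4 SMAD-induced genes, and fits of 2 groups 1 SMAD-induced gene and 4 Id partners. Leaving out 1 array gave 0 to 4, 0 to 6, 0 to 10, 0 to 3 and 0 to 7. The cause was not tested.

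Some differences changed sign. Between dKO XY and control XY, Id4 was 0.021 with the covariate, Ski 0.0893 after quantile normalization, and Smad6 -0.0011 with array weights, -0.0191 with the covariate and -0.0034 to 0.0685 when 1 array was left out. Between control XX and control XY, the covariate gave 0.0426 for Id1, 0.39 for Id2, 0.0869 for Id3, 0.0336 for Id4 and 0.0733 for Bambi, quantile normalization 0.13 for Id3 and 0.0504 for Ski, and leaving out 1 array -0.27 to 0.0055 for Id3. Between dKO XY and control XX, Skil was 0.0398 after quantile normalization, 0.12 with the covariate, 0.22 without dKO XY 1 and 3 and -0.22 to 0.11 when 1 array was left out, Ski was 0.0389 after quantile normalization, Id4 0.00017 without dKO XY 1 and 3, and Smad7 -0.0105 to 0.12 when 1 array was left out. Of 564 values of single genes under an alternative, 492 kept direction and side of the threshold. Of the rest, 47 lost and 4 gained the call, and 21 changed sign. The 27 results behind them (9 genes in 3 comparisons) held 5, 1 and 1 calls per comparison in the main fits. Results not called there could not lose a call.

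The labels give the groups the same replicate numbers. Deviations of same-numbered arrays correlated at -0.41 to 0.37 (6 of 12 pairs over 0.1), and 2 of 12 arrays correlated best with their own number, so the number was not taken to pair the samples. With the replicate block, Id2 in dKO XY against control XX had an adjusted p of 0.0671, leaving 0 members called there. No other member's call changed. In dKO XY against control XY, the block gave 2 SMAD calls, 4 receptors, 8 other regulators, 2 other SMAD-induced genes and 5 Id partners. Without the block these were 1, 5, 9, 2 and 7. Id4 has no value under the filter on dim clusters, since it falls below the median, and the mean over clusters of a symbol gives the same values, since each member has 1 cluster.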
